A study of Mus musculus with 30 samples.

Results

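The genes that encode the translation initiation and elongation factors were taken from the mouse annotation by name, as every protein-coding symbol that starts with Eif or Eef. The 4 Eif2ak kinase genes were left out. This gave 68 genes of 21883 protein-coding genes on chromosomes 1 to 19, X and Y. In the role lists used here, 19 were placed under start site selection and delivery of the initiator tRNA, and 14 under eIF3 proteins. Another 12 were placed under cap-binding, scaffold or helicase factors and 4 under cap inhibitors or a transporter. The list of elongation factors held 10 genes, and that of enzymes that modify elongation factors 7. Outside these lists were a read-through transcript of Eef1akmt4 with its neighbour and Eif4a3l1. The lists are broad, since the start site list holds Eif6 and Eif1ad and that of elongation factors holds Eef1e1. Chromatin of NOS1+ N1E115 cells, a mouse neuroblastoma line that the labels describe as neuroblasts from brain, was immunoprecipitated after 3 days at 4% O2 or at 20% O2. Each of 6 antibodies gave 2 libraries at 4% O2 and 2 at 20% O2, which makes 24. The antibodies recognised RNA polymerase II (POLR2), its forms phosphorylated at serine 5 (POLR2S5) and serine 2 (POLR2S2) of the carboxy-terminal repeats, acetylated histone H3 lysine 9 (H3K9ac), the insulator protein CTCF and the cohesin subunit RAD21. All cells came from the one line, and 20% O2, at ambient pressure, is the standard culture condition against which 4% O2 was set.

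Translation starts when eIF2 brings the initiator tRNA to the small ribosomal subunit, eIF3 holds the complex together, and the cap-binding complex of eIF4E, eIF4G and the helicase eIF4A recruits it to messenger RNA. The exchange factor eIF2B recharges eIF2 with GTP, and the 4E-binding proteins block eIF4E when mTOR is inactive. Elongation depends on eEF1A, which delivers aminoacyl-tRNA, and on eEF2, which moves the ribosome along and is switched off by its kinase eEF2K. Low oxygen is known to slow both steps in many cell types through the control of eIF2, of the 4E-binding proteins and of eEF2K. The measurements here are of chromatin, not of RNA, protein or translation. Serine 5 phosphorylation marks polymerase near the start of genes, serine 2 phosphorylation marks elongating polymerase, and H3K9ac marks active promoters.

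RefSeq promoter sequences (GRCm38.p6, 250 bases before to 50 after the annotated start) were at hand for 52 of the 68 genes. Of these, 6 are printed here, all of genes named below. Eef2k and Eif4g3 had the largest log2 ratios of either sign in the phosphorylated polymerase forms among genes with both rounds on one side. Eif3k differed in POLR2, and Eef2, Eif4a1 and Eef1a1 were among the genes with much polymerase. Eif1 and Eif5a, with more POLR2 than Eif4a1, and Eif3l, which also differed in POLR2, hold no CACGTG and are not printed. Promoters with CACGTG thus make up more of the 6 than of the 52, by the choice of what to print. Capitals mark the 6-letter E-box CACGTG (bound by Myc and related factors, and holding the core letters ACGTG of the element bound by hypoxia-inducible factors) in Eef2k, Eif3k, Eef2 and Eif4a1. They mark ACGTG alone in Eif4g3, and in Eef1a1 a run of 10 pyrimidines that begins 5 bases before the annotated start. Positions are counted from the annotated start.
Eef2k (chr7:120842581-120842880, plus strand, site at -31): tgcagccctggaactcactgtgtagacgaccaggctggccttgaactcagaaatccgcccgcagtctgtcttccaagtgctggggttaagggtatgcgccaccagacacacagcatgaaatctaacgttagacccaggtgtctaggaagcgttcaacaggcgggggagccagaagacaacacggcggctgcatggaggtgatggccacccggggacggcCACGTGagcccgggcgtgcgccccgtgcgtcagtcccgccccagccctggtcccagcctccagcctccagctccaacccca
Eif3k (chr7:28981839-28982138, minus strand, site at -44): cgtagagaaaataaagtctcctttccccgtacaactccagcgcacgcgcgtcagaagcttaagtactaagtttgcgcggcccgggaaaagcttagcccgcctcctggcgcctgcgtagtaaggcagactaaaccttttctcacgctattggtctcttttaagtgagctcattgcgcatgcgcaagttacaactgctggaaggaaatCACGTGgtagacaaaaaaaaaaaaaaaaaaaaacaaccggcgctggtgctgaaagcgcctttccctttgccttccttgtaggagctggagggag
Eef2 (chr10:81176381-81176680, plus strand, site at -43): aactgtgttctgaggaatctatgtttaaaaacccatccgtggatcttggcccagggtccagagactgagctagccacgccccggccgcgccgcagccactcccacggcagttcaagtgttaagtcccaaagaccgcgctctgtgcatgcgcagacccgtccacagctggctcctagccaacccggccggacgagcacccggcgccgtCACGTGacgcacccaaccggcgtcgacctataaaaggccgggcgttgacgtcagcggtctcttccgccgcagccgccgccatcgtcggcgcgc
Eif4a1 (chr11:69672374-69672673, minus strand, site at -189): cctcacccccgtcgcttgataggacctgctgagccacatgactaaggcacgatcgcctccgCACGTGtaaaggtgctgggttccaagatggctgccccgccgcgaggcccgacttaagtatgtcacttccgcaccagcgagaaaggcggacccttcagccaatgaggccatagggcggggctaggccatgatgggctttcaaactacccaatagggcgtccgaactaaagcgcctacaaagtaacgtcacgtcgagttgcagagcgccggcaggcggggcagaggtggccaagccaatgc
Eif4g3 (chr4:137993205-137993504, plus strand, site at -243): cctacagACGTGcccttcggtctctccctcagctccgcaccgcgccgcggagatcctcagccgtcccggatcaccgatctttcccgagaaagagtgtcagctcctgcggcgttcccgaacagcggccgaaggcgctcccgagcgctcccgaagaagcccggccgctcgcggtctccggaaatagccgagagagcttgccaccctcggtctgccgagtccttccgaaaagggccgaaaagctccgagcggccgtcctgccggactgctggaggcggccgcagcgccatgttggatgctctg
Eef1a1 (chr9:78481675-78481974, minus strand, run at -5): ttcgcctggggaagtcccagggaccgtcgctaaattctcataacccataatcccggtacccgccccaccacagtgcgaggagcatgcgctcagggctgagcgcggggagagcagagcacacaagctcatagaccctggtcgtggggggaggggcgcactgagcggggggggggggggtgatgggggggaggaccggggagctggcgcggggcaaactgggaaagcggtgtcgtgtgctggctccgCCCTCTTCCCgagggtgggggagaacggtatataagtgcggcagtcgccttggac

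Short motifs were counted on both strands of these promoters, except the pyrimidine run. CACGTG stood in 13 of the 52 promoters (25.0%), against 7.91% of 17491 promoters of all genes. Its holders were Eef1aknmt, Eif5a2, Eif4h, Eif3k, Eif3f, Eef2k, Eif1b, Eef2, Eif4a1, Eif4g1, Eif3a, Eef1akmt4 and the read-through of Eef1akmt4, whose promoter is the same sequence. ACGTG, which every CACGTG contains, stood in 21 (40.4%, against 20.7% of all promoters). The GC-box letters GGGCGG stood in 39 (75.0%, against 46.3%) and the ETS-like letters CCGGAAG in 14 (26.9%, against 11.9%). TATAAA stood in 5 (9.62%, against 13.3%) and the CTCF core letters AGGGGGC in 4 (7.69%, against 12.7%). A run of at least 5 pyrimidines that begins with C within 10 bases of the start, on the sense strand, was found in 14 (26.9%, against 31.1%). A match is a description of the letters in these windows and no measurement of binding.

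The depth set the precision of all that follows. The deposited polymerase lists held 2.058 to 16.598 M reads (1 M is 1000000 reads) in 11172 to 24635 islands, and the other lists held 26908 to 126873 peaks. Within gene windows, POLR2 had 3696586 and 6254585 reads at 4% O2, against 1712544 and 5060214 at 20% O2. POLR2S5 had 8633991 and 9294786 reads at 4% O2, against 4999685 and 9436423 at 20% O2. POLR2S2 had 8570420 and 13566075 reads at 4% O2, against 4141980 and 7813747 at 20% O2. The 20% O2 library of round 1 was thus the shallowest for every polymerase form. Of 14 neuroblast marker genes, 13 and 14 had an H3K9ac peak at 4% O2 and 13 and 13 at 20% O2, and for markers of other cell types the counts were 1 of 5 for macrophages, 2 of 4 for endothelium, 2 of 5 for fibroblasts and 1 of 3 for astrocytes in every library. For oligodendrocytes and Schwann cells they were 2 and 2 of 4 at 4% O2, and 3 and 2 at 20% O2, and the part of other cells in the results was not tested.

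Peaks and islands were counted in a gene when they touched it or the 1 kb on either side. Most translation factor genes carried polymerase and acetylation in every library, more often than coding genes at large. A POLR2 island lay in all 4 libraries at 56 of the 68 genes (82.4%, against 42.2% of all coding genes), a POLR2S5 island at 61 (89.7%, against 52.7%) and a POLR2S2 island at 55 (80.9%, against 42.8%). All 3 forms were present in every library at 51 genes. An H3K9ac peak lay in all 4 libraries at 64 genes (94.1%, against 58.9%) and a CTCF peak at 46 (67.6%, against 51.6%). RAD21 was the exception, at 22 genes (32.4%, against 34.5%). Eif2s3y, the Y-linked copy of the eIF2 gamma subunit, and Eif4a3l1 had no call of any antibody in the lists used here. Eif3j2 had no H3K9ac or POLR2 call, Eif3e and Eif3h had no POLR2 island, Eif4enif1 no POLR2S5 island, Eif5a2 no POLR2S2 island and Eif4ebp3 no H3K9ac peak in those lists. Eif3e had POLR2S5 islands in all 4 libraries, and Eif4enif1 had POLR2S2 islands over 100% of its window at 4% O2 and 88.6% at 20% O2 in round 1 but none in round 2. Whether every call is in the lists used here is not known, so these absences are of the lists and may be missing rows.

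**Figure D1:**
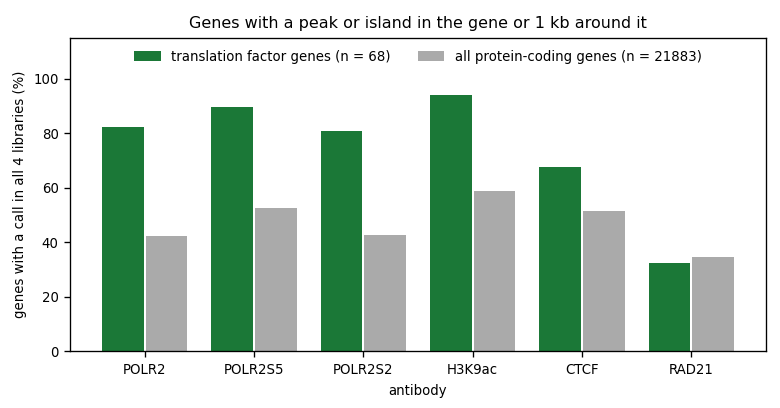
Percentage of genes with a peak or island in all 4 libraries of an antibody, for the 68 translation factor genes (green) and all 21883 coding genes (grey). The green bars stand above the grey ones for the polymerase forms, H3K9ac and CTCF, and at about the same height for RAD21 (32.4% and 34.5%).

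No translation factor gene had a POLR2 island at 4% O2 only or at 20% O2 only, patterns seen in 0.27% and 0.16% of all coding genes. The same held for POLR2S5 (0.16% and 0.251% of all coding genes). In POLR2S2, Eef1e1 and Eif3j2 had islands in both 4% O2 libraries and in neither 20% O2 library, a pattern seen in 1.49% of all coding genes, and no translation factor gene had the opposite pattern (0.178% of all coding genes). Eef1e1, which encodes a scaffold protein of the aminoacyl-tRNA synthetase complex, had 143 and 97 POLR2S2 reads at 4% O2, against 0 and 0 at 20% O2. Eif3j2 had 25 and 50 POLR2S2 reads at 4% O2, against 0 and 0 at 20% O2. These are small counts, the 20% O2 libraries were the shallower ones in each round, and neither gene had islands over at least 20% of its window in both 4% O2 libraries. Under that stricter count, Eif4g3 was the one gene present at 20% O2 only, in POLR2S5 (0.484% of all coding genes) and in POLR2S2 (0.297%). Peaks at 4% O2 only and at 20% O2 only were found at no translation factor gene for H3K9ac (0.0503% and 0.219% of all coding genes), for CTCF (0.434% and 0.0366%) or for RAD21 (0.425% and 0.631%).

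The level of polymerase is given as reads per kb of window per 1000000 window reads. Islands ran past most windows of the translation factor genes. The median share inside was 50.2% in POLR2S2 at 4% O2 of round 2 and up to 80.3% in POLR2 at 20% O2 of round 1. Island reads were shared out by length, so a level may in part be that of the surroundings. In bulk chromatin, less polymerase in all cells and polymerase in fewer cells cannot be told apart. The same genes led in all 3 forms: Eif1, the start codon selection factor, Eef1a1, the main eEF1A gene, and Eef2. In POLR2, Eif1 averaged 32.9 ± 21.9, Eef1a1 25.3 ± 18.4, Eef2 20.1 ± 7.71, Eif5a 18.4 ± 5.27 and Eif3d 17.2 ± 5.20 (SD over all 4 libraries). The spreads overlap, so the order among these 5 genes is not resolved. At the other end stood Eefsec, the selenocysteine elongation factor, at 0.356 ± 0.0674 and Eif4g3 at 0.575 ± 0.156. The median translation factor gene stood at 8.06 in POLR2, 5.88 in POLR2S5 and 5.93 in POLR2S2, against 4.02, 3.01 and 3.60 for the median gene fitted. Islands covered more of these genes in most libraries. The coverage is given for genes with an island of the form in all 4 libraries. POLR2 islands covered 84.1% and 100% of the median translation factor gene body at 4% O2, against 44.4% and 64.9% at 20% O2. For the median of all genes fitted they covered 27.4% and 41.9% at 4% O2, against 13.7% and 32.1% at 20% O2. POLR2S5 islands covered 100% and 100% of the median translation factor gene body at 4% O2, against 93.6% and 100% at 20% O2. For the median of all genes fitted they covered 53.5% and 67.8% at 4% O2, against 31.9% and 68.6% at 20% O2. POLR2S2 islands covered 100% of the median translation factor gene in every library. For the median gene fitted they covered 89.8% and 100% at 4% O2, against 44.1% and 87.7% at 20% O2.

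Between O2 levels, no translation factor gene passed the adjusted threshold of the main test. The edgeR quasi-likelihood test with the sequencing round as a block called 0 of 56 genes in POLR2, 0 of 61 in POLR2S5 and 0 of 55 in POLR2S2 at a Benjamini-Hochberg adjusted p under 0.05, and it called 0% of all genes fitted in any form. Below an unadjusted p of 0.05 stood 4 translation factor genes in POLR2 (Eif2b3, Eif3k and Eef2k higher, Eif3l lower), against 3.7% of all genes higher and 2.14% lower. In POLR2S5 there were 2 (Eef2k higher, Eif4g3 lower), against 3.83% of all genes higher and 3.28% lower. In POLR2S2 there were 4 (Eef2k and Eif4e3 higher, Eif4g3 and Eif4ebp1 lower), against 5.5% higher and 3.45% lower. DESeq2 with the same block called 47 genes higher and 40 lower in POLR2S5 and 184 higher and 91 lower in POLR2S2, with Eif4g3 the only translation factor gene among them (adjusted p 0.00378 and 1e-06). In POLR2 DESeq2 called 10 genes higher and 1 lower, with 0 translation factor genes. The log2 ratio of 4% to 20% O2 was within 1 of 0 at 53 of 56 genes in POLR2, 58 of 61 in POLR2S5 and 51 of 55 in POLR2S2. Its range was -1.41 to 1.61 in POLR2, -1.84 to 1.66 in POLR2S5 and -3.06 to 1.52 in POLR2S2.

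The median log2 ratio of the translation factor genes was a little below 0, at -0.17 in POLR2, -0.15 in POLR2S5 and -0.19 in POLR2S2, where the median over all genes fitted was -0.01, 0.00 and 0.00. Round 1 gave -0.34, -0.33 and -0.41, and round 2 gave 0.03, 0.03 and 0.07. Without the shallow 20% O2 library of round 1 the medians were 0.07, 0.07 and 0.08, so no direction is given for the genes as a whole. Ratios below 0 in both rounds were found at 21 genes in POLR2 (37.5%, against 29.0% of all genes), 20 in POLR2S5 (32.8%, against 28.5%) and 23 in POLR2S2 (41.8%, against 31.0%). Ratios above 0 in both rounds were found at 10 (17.9%, against 27.2%), 7 (11.5%, against 28.1%) and 10 (18.2%, against 30.6%). Both 4% O2 values lay above both 20% O2 values at 8 genes in POLR2 (14.3%, against 16.2% of all genes), 4 in POLR2S5 (6.56%, against 15.4%) and 6 in POLR2S2 (10.9%, against 18.7%). They lay below at 7 (12.5%, against 15.1%), 8 (13.1%, against 14.3%) and 10 (18.2%, against 17.4%). Among the 51 genes fitted in every form, 7 were below 0 in both rounds of each form (13.7%, against 9.34% of 7300 genes): Eif4e2, Eif4g3, Eif4ebp1, Eef1a1, Eif4a2, Eif4ebp3 and Eif3a. Another 5 were above 0 (9.8%, against 11.4%): Eif3j1, Eif3i, Eif2b4, Eef2k and Eif2b5. Whether the antibodies shared chromatin is not stated, so these are not independent counts.

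**Figure D2:**
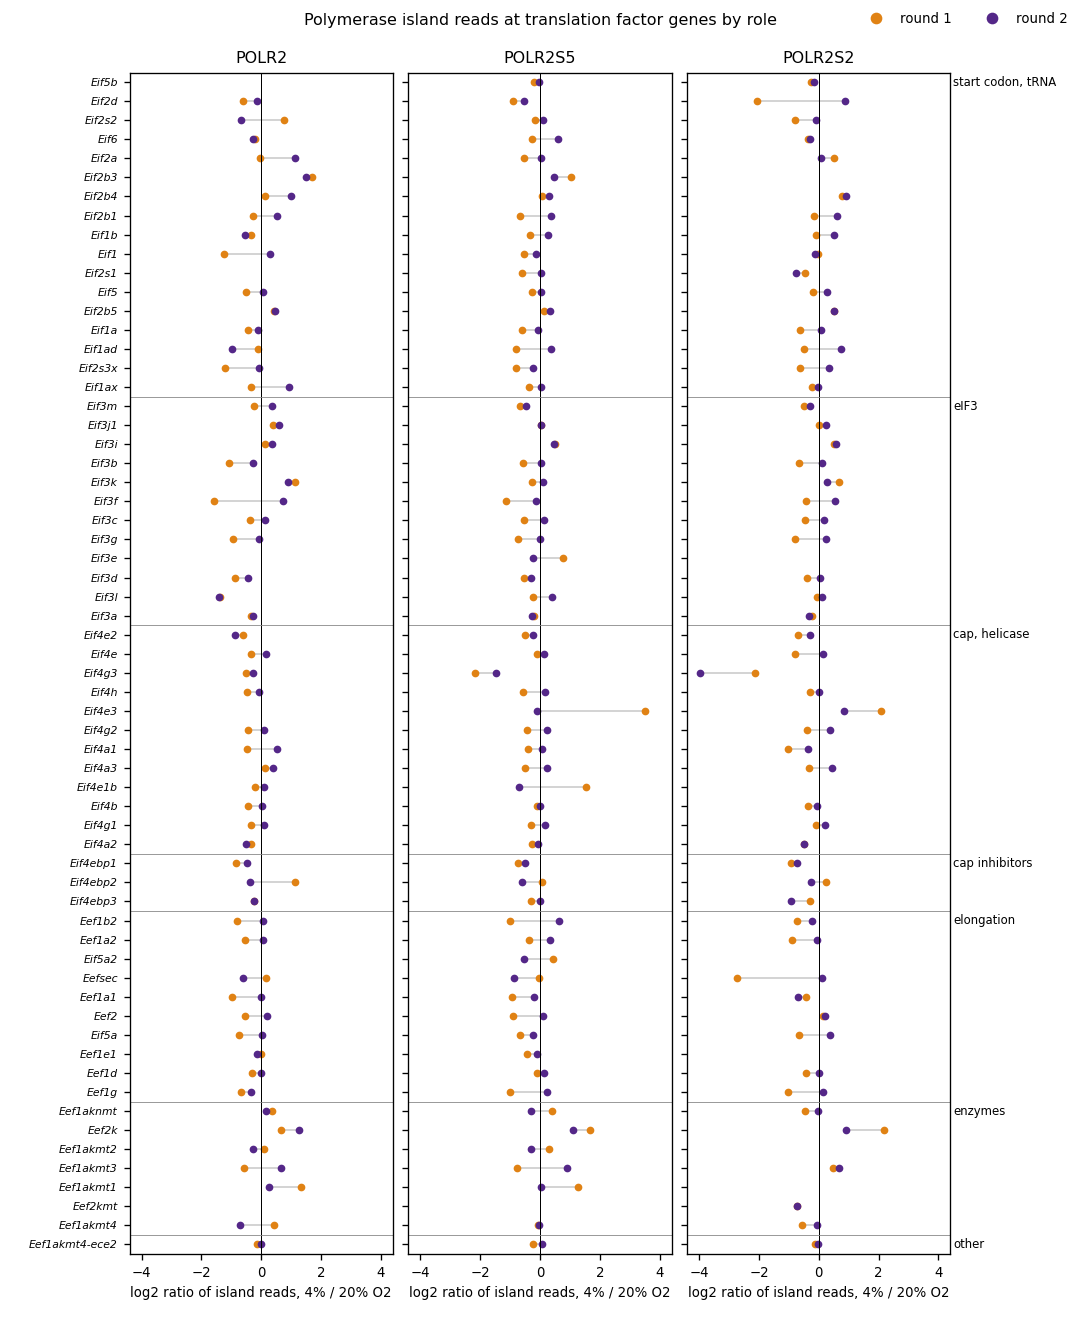
Log2 ratio of island reads, 4% over 20% O2, for every translation factor gene with an island in all 4 libraries of a form, in round 1 (orange) and round 2 (purple), with genes grouped by role. Eef2k lies right of 0 and Eif4g3 left of 0 in both rounds of each form, and the round 1 points of the elongation factors lie mostly left of those of round 2.

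Polymerase at the genes of start site selection and the initiator tRNA had medians below 0 in round 1 and above 0 in round 2. The eIF2B subunits, which belong to this list, had medians above 0 among the few that could be fitted. Of the 19 genes of the list, 15 were fitted in POLR2, 17 in POLR2S5 and 16 in POLR2S2. Their median log2 ratios were -0.22, -0.15 and -0.10 in these forms. Round 1 gave -0.26, -0.37 and -0.25, and round 2 gave 0.06, 0.05 and 0.18. Of the 5 eIF2B subunits, 4, 4 and 3 could be fitted in POLR2, POLR2S5 and POLR2S2, and 3, 3 and 2 of those were above 0 in both rounds, against 27.2%, 28.1% and 30.6% of all genes. The eIF2B medians were 0.51, 0.21 and 0.51. None passed the adjusted threshold. Counted per kb of island, the medians were -0.09, -0.19 and 0.19.

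Eif2b3 (chromosome 4, 117019399 to 117086852) encodes the gamma subunit of eIF2B. Its POLR2 level was 1.27 and 1.23 at 4% O2, against 0.388 and 0.429 at 20% O2, and the groups did not overlap. The POLR2 reads were 323 and 506 at 4% O2, against 50 and 148 at 20% O2, from islands over 10.4 and 11.4 kb at 4% O2 and 2.0 and 3.2 kb at 20% O2. The log2 ratio was 1.61 ± 0.33 (SE, 1.70 and 1.5 in rounds 1 and 2, edgeR unadjusted p = 0.00258, adjusted p = 0.769). Per kb of island it was -0.10. In POLR2S5 the level was 0.597 and 0.748 at 4% O2, against 0.286 and 0.541 at 20% O2 (0.76 ± 0.34, and -0.61 per kb of island), and in POLR2S2 the 20% O2 library of round 1 had no island in the list used here. Eif2b5, the catalytic epsilon subunit, had POLR2 levels of 7.11 and 11.9 at 4% O2, against 5.29 and 8.57 at 20% O2, a log2 ratio of 0.45 ± 0.34 (-0.40 per kb of island), where the groups overlapped. Its POLR2S2 level was 5.57 and 8.19 at 4% O2, against 3.92 and 5.77 at 20% O2 (0.51 ± 0.33). Eif2b4, the delta subunit, which shares its window with Snx17, had POLR2S2 levels of 7.58 and 6.65 at 4% O2, against 4.44 and 3.49 at 20% O2, without overlap (0.85 ± 0.37, and -0.11 with whole island reads). Eif2b1, the alpha subunit, gave log2 ratios of 0.15, -0.15 and 0.23. Eif2s1, the eIF2 alpha subunit on which the stress kinases act, shares its window with Atp6v1d and went the other way in POLR2S2. It stood at 6.62 and 4.93 at 4% O2, against 9.16 and 8.38 at 20% O2 (-0.62 ± 0.27, edgeR adjusted p = 0.581).

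The eIF3 genes were spread to both sides of 0. Their median log2 ratios were -0.31 in POLR2, -0.21 in POLR2S5 and -0.13 in POLR2S2. Round 1 gave -0.38, -0.40 and -0.41, and round 2 gave 0.14, 0.02 and 0.19. With the POLR2 antibody, Eif3k and Eif3l differed in opposite directions although both encode peripheral subunits that bind each other. Eif3k (chromosome 7, 28971372 to 28981890) stood at 10.9 and 9.96 at 4% O2, against 4.95 and 5.34 at 20% O2, without overlap, with islands over 12.52 and 12.52 kb at 4% O2 and 3.29 and 3.49 kb at 20% O2. Its log2 ratio was 1.01 ± 0.34 (edgeR unadjusted p = 0.0248, adjusted p = 0.769), and per kb of island it was -0.47. In POLR2S5 the ratio was -0.08 and in POLR2S2 0.47 ± 0.36, and the window also holds Map4k1. Eif3l (chromosome 15, 79075223 to 79094400) stood at 2.47 and 2.30 at 4% O2, against 6.49 and 6.14 at 20% O2, without overlap. Its POLR2 islands spanned 3.78 and 4.38 kb at 4% O2 and 11.98 and 21.18 kb at 20% O2. The log2 ratio was -1.41 ± 0.34 (-1.39 and -1.41 by round, edgeR unadjusted p = 0.00586, adjusted p = 0.769), and per kb of island it was 0.96. POLR2S5 and POLR2S2 gave 0.09 ± 0.31 and 0.01 ± 0.31 for Eif3l. Eif3a, the largest scaffold subunit, had POLR2 levels of 13.9 and 10.7 at 4% O2, against 17.6 and 13 at 20% O2 (-0.31 ± 0.42). Eif3i, a partner of the core subunit eIF3b, had POLR2S5 levels of 3.62 and 3.94 at 4% O2, against 2.52 and 2.83 at 20% O2. The groups did not overlap (0.50 ± 0.32, and -0.21 per kb of island), and the Eif3i window also holds Tmem234. Eif3b and Eif3d gave -0.68 ± 0.39 and -0.66 ± 0.39 in POLR2, and Eif3f -0.63 ± 0.40 in POLR2S5. In round 1 these 3 ratios were further below 0 than in round 2.

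Among the cap-binding and helicase genes, Eif4g3 set itself apart. It encodes eIF4GII, a paralogue of the eIF4G1 scaffold, spans 215.308 kb of chromosome 4 (137991779 to 138207086) and shares its window with no other coding gene. Its POLR2 level was low in all libraries, at 0.554 and 0.430 at 4% O2 and 0.796 and 0.521 at 20% O2 (log2 ratio -0.40 ± 0.35). In POLR2S5 it had 711 and 678 reads at 4% O2, against 1930 and 1936 at 20% O2, a level of 0.383 and 0.337 at 4% O2, against 1.75 and 0.946 at 20% O2. In POLR2S2 it had 1136 and 487 reads at 4% O2, against 2515 and 4384 at 20% O2, a level of 0.604 and 0.169 at 4% O2, against 2.67 and 2.67 at 20% O2. The groups did not overlap in either phosphorylated form. The log2 ratio was -1.84 ± 0.31 in POLR2S5 (-2.19 and -1.49 by round, edgeR unadjusted p = 0.00234, adjusted p = 0.672) and -3.06 ± 0.56 in POLR2S2 (-2.14 and -3.98, edgeR unadjusted p = 0.00436, adjusted p = 0.487).

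The Eif4g3 difference was one of extent along the gene. POLR2S2 islands covered 41.11 and 8.0 kb of the window at 4% O2, against 118.29 and 161.91 kb at 20% O2, and POLR2S5 islands 16.11 and 13.42 kb at 4% O2, against 80.69 and 46.91 kb at 20% O2. Per kb of island the log2 ratios were 0.14 and 0.40. Every polymerase library had an island at the 5' end of the gene. Some islands ran past the far end of the gene, at 215.3 kb. At 20% O2 of round 2 these began at 199.42 kb in POLR2S5 and 195.62 kb in POLR2S2. At 4% O2 of round 1 an island in POLR2S2 began at 209.02 kb. Reads were shared out by length, so reads from beyond the gene may be part of its values. In POLR2S2 both 4% O2 libraries were deeper than the 20% O2 library of the same round, and the part of depth was not tested. The highest H3K9ac peak in Eif4g3 ranked higher at 4% O2, at percentiles 65.3 and 94.4, against 55.3 and 67.3 at 20% O2.

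**Figure D3:**
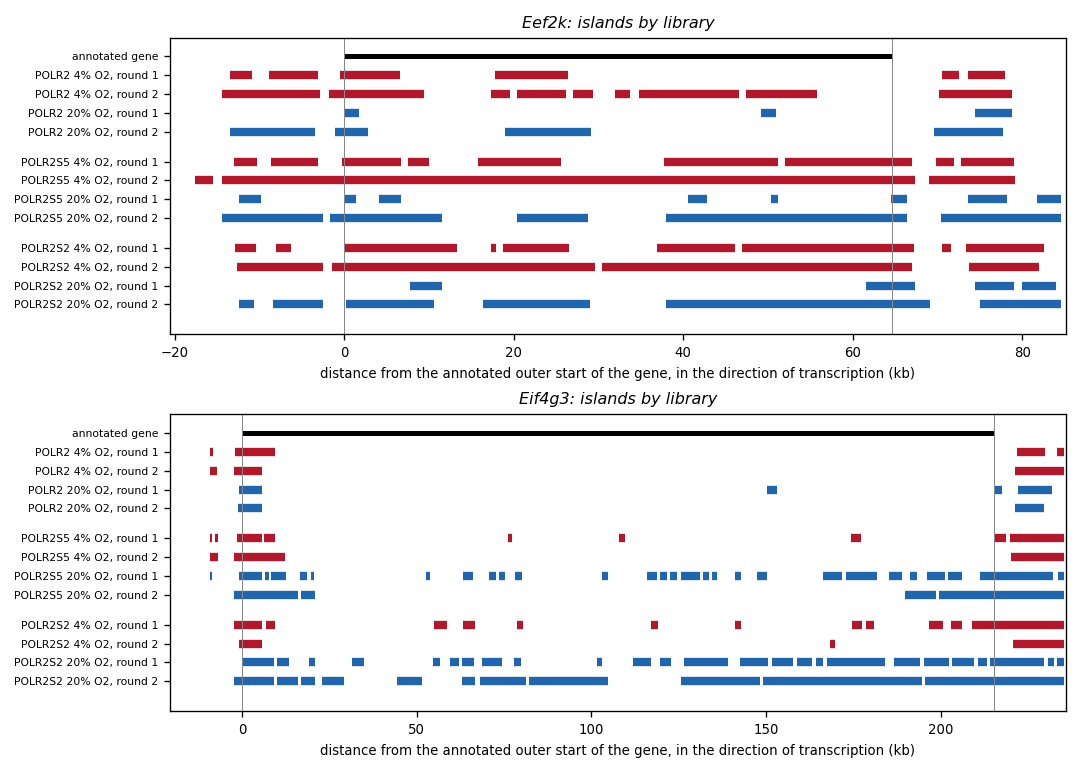
Polymerase islands along Eef2k (top, gene of 64.6 kb) and Eif4g3 (bottom, gene of 215.3 kb) in each library, with 4% O2 in red above 20% O2 in blue and distance counted in kb from the outer annotated start, which lies 189 bases before the RefSeq start of the Eef2k promoter and 1676 bases before that of Eif4g3. Islands in Eef2k are longer at 4% O2 within each round, and POLR2S2 and POLR2S5 islands inside Eif4g3 are longer at 20% O2.

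Most of the other cap-complex genes differed little. Eif4e, the cap-binding protein itself, gave log2 ratios of -0.09, 0.01 and -0.33 in POLR2, POLR2S5 and POLR2S2, and Eif4g1, the main scaffold gene, -0.11, -0.06 and 0.04. Eif4e2, the cap-binding homologue that takes part in translation at low oxygen in human cells, gave -0.74 ± 0.38, -0.37 ± 0.26 and -0.49 ± 0.30. Its POLR2 level was 6.41 and 3.22 at 4% O2, against 9.74 and 5.93 at 20% O2, and the ratio per kb of island was 0.50. The helicase genes Eif4a1 and Eif4a2 gave POLR2S2 log2 ratios of -0.69 ± 0.38 and -0.50 ± 0.31. Eif4a1, which shares its window with Cd68 and Senp3, stood at 7.48 and 4.59 in POLR2S2 at 4% O2, against 15.3 and 5.87 at 20% O2, with the larger gap in round 1, and its ratio was 1.10 with whole island reads. Eif4a2, which shares its window with Rfc4, stood at 11.7 and 5.99 in POLR2S2 at 4% O2, against 16.6 and 8.50 at 20% O2. Without the 20% O2 library of round 1 these ratios were 0.039 for Eif4a1 and 0.060 for Eif4a2. Eif4e3, a further cap-binding homologue with little polymerase, stood at 0.454 and 0.760 in POLR2S2 at 4% O2, against 0.104 and 0.426 at 20% O2, without overlap (1.45 ± 0.52, edgeR unadjusted p = 0.0461, adjusted p = 0.549), and its ratio per kb of island was -0.50. In POLR2S5 its rounds disagreed, at 3.51 and -0.09, and its window also holds Gpr27.

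Of the cap inhibitors, Eif4ebp1 was lower at 4% O2 in all forms and libraries. It encodes 4E-BP1, the mTOR-controlled repressor of eIF4E, lies on chromosome 8 (27260327 to 27275656) and has its window to itself. The POLR2 level was 9.97 and 7.99 at 4% O2, against 18 and 11 at 20% O2. The POLR2S5 level was 7.26 and 5.89 at 4% O2, against 12.1 and 8.33 at 20% O2, and the POLR2S2 level 7.60 and 7.08 at 4% O2, against 14.6 and 11.7 at 20% O2. The groups did not overlap in any form. The log2 ratios were -0.66 ± 0.38, -0.62 ± 0.26 and -0.83 ± 0.28, with an edgeR unadjusted p of 0.0351 (adjusted p = 0.512) in POLR2S2 and adjusted p of 0.769 in POLR2 and 0.672 in POLR2S5. Islands covered 99.6% to 100% of the window in every library, and the ratio per kb of island kept its sign, at -0.26, -0.45 and -0.57. Eif4ebp2, the 4E-binding protein of neurons, gave 0.34, -0.27 and -0.02. Eif4ebp3, which shares its window with Sra1, gave -0.25, -0.15 and -0.62.

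**Figure D4:**
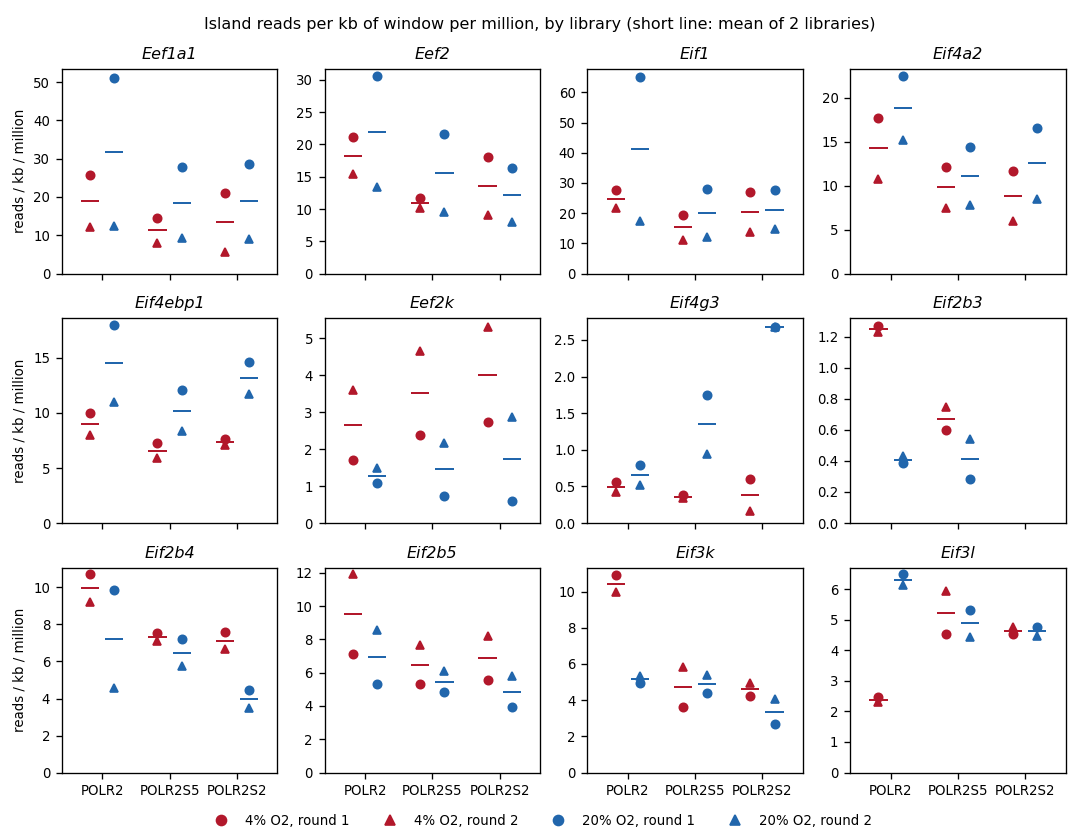
Island reads per kb of window per 1000000 window reads for 12 translation factor genes, with 4% O2 (red) left of 20% O2 (blue), circles for round 1, triangles for round 2 and a short line for the mean of 2 libraries. Eif4ebp1 and Eef2k keep the O2 levels apart within each round, while the Eef1a1, Eef2 and Eif1 values at 20% O2 differ more between rounds than between O2 levels.

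The elongation factor genes had median ratios below 0 in round 1 and near 0 in round 2, with members on both sides. Their median log2 ratios were -0.24, -0.33 and -0.47 in POLR2, POLR2S5 and POLR2S2, made of -0.55, -0.55 and -0.69 in round 1 and 0.01, -0.01 and 0.05 in round 2. Exceptions included Eef2 in POLR2S2 and Eif5a2 in POLR2S5, above 0 in round 1 (0.15 and 0.42), and Eef1b2 (0.64) and Eefsec (-0.85), far from 0 in round 2 of POLR2S5. Eef1a1 (chromosome 9, 78478453 to 78481724) had POLR2 levels of 25.7 and 12.2 at 4% O2, against 51.2 and 12.3 at 20% O2 (-0.50 ± 0.41). In POLR2S5 it stood at 14.5 and 8.03 at 4% O2, against 27.8 and 9.24 at 20% O2, and in POLR2S2 at 21.1 and 5.57 at 4% O2, against 28.7 and 9.02 at 20% O2 (-0.57 ± 0.34 and -0.57 ± 0.33). Both rounds were below 0 in each form, but round 2 of POLR2 by only -0.01. Without the 20% O2 library of round 1 the Eef1a1 ratios were 0.62, 0.29 and 0.56. Eef2 (chromosome 10, 81176631 to 81182509, sharing its window with Dapk3) stood at 21.1 and 15.4 in POLR2 at 4% O2, against 30.6 and 13.4 at 20% O2 (-0.17 ± 0.39). Its POLR2S2 level was 18.1 and 9.08 at 4% O2, against 16.3 and 7.93 at 20% O2 (0.17 ± 0.31). In round 2 the window held 950 of 22602 POLR2S2 island reads at 4% O2 and 472 of 3322 at 20% O2. For POLR2 it held 719 of 8956 and 526 of 6332. The Eef2 levels of round 2 are thus length shares of far longer islands. The rounds of Eef2 lay on both sides of 0 in POLR2. Eef1a2, the eEF1A gene of neurons and muscle, had 9.82 and 6.51 in POLR2 at 4% O2, against 14.4 and 6.21 at 20% O2. Eif5a, which helps ribosomes over stalling sequences, gave -0.35, -0.44 and -0.15, and its paralogue Eif5a2 had POLR2S5 levels of 1.14 and 0.833 at 4% O2, against 0.844 and 1.23 at 20% O2. The 20% O2 library of round 1 was the shallowest in each form, and the part of depth in the round 1 difference at these genes was not tested.

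Of the enzymes that act on elongation factors, Eef2k was higher at 4% O2 in every form. Eef2k encodes the kinase that phosphorylates and stops eEF2, spans chromosome 7 from 120842642 to 120907219 and shares its window with no other coding gene. The POLR2 level was 1.71 and 3.60 at 4% O2, against 1.08 and 1.49 at 20% O2. POLR2S5 reads numbered 1360 and 2882 at 4% O2, against 252 and 1361 at 20% O2, a level of 2.39 and 4.67 at 4% O2, against 0.745 and 2.17 at 20% O2. POLR2S2 reads numbered 1571 and 4690 at 4% O2, against 175 and 1438 at 20% O2, a level of 2.73 and 5.31 at 4% O2, against 0.606 and 2.86 at 20% O2. The O2 levels did not overlap in POLR2 and POLR2S5, and in POLR2S2 the lower 4% O2 value lay just below the higher 20% O2 value. The log2 ratios were 0.97 ± 0.38 in POLR2, 1.39 ± 0.29 in POLR2S5 and 1.52 ± 0.42 in POLR2S2. The edgeR unadjusted p-values were 0.0404, 0.00567 and 0.0197, and the adjusted ones 0.769, 0.672 and 0.490. Both rounds were above 0 in each form, at 1.68 and 1.10 in POLR2S5 and at 2.16 and 0.89 in POLR2S2.

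At Eef2k the length covered was higher at 4% O2 within each round. In round 2 the reads per kb of island were higher too in POLR2S5 and POLR2S2, but not in POLR2. POLR2S5 islands covered 46.22 and 66.58 kb at 4% O2, against 8.02 and 48.58 kb at 20% O2, and POLR2S2 islands 49.62 and 65.78 kb at 4% O2, against 7.82 and 50.62 kb at 20% O2. The whole window was covered by POLR2S5 islands in the 4% O2 library of round 2. Per kb of island the log2 ratios by round were -0.82 and -0.18 in POLR2, -0.47 and 0.63 in POLR2S5 and -0.03 and 0.58 in POLR2S2, with means of -0.50, 0.08 and 0.28. Both 4% O2 libraries were deeper than the 20% O2 library of the same round in POLR2 and POLR2S2, and the islands were shortest in the shallowest library, whose part in the result was not tested. In POLR2S5 of round 2 the 2882 reads at 4% O2 were a share of 1 island of 3541 reads. That island ran from -14.44 to 67.36 kb around the start. At 20% O2 the stretch from -14.44 to -2.44 kb was a separate island of 954 reads, outside the window. Reads were shared out by length, so reads from before the gene may be part of its 4% O2 values in that round. H3K9ac at Eef2k ranked at percentiles 81.3 and 70.5 at 4% O2, against 74.9 and 90.9 at 20% O2, with no shared direction.

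The methyltransferases of eEF1A and eEF2 varied around 0. Eef1akmt1 had POLR2 levels of 4.42 and 3.76 at 4% O2, against 1.75 and 3.10 at 20% O2 (0.79 ± 0.40), and a POLR2S5 ratio of 0.65 ± 0.44. Eef1akmt3 shares its window with Mettl1 and had POLR2S2 levels of 8.24 and 8.77 at 4% O2, against 5.88 and 5.54 at 20% O2. The groups did not overlap (0.57 ± 0.33), and with whole island reads the ratio was -0.40. The POLR2S5 rounds of Eef1akmt3 lay on both sides of 0. Eef2kmt, which methylates eEF2, had POLR2S2 levels of 1.29 and 3.19 at 4% O2, against 2.14 and 5.34 at 20% O2 (-0.74 ± 0.37). Its window also holds Alg1.

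Other genes of translation control formed a list of 29 that holds the eIF2 kinases and the mTOR pathway. Their median log2 ratios were 0.04 in POLR2, -0.10 in POLR2S5 and -0.08 in POLR2S2. All genes fitted had -0.01, 0.00 and 0.00, and the translation factor genes -0.17, -0.15 and -0.19. With 25, 29 and 28 genes of the list fitted, edgeR and DESeq2 each called 0 after adjustment. Unadjusted p-values under 0.05 were found for 1, 3 and 2 genes, where all genes had 540 of 9243, 820 of 11531 and 838 of 9361. Tsc1, which restrains mTOR, was among them in each form, with log2 ratios of 1.79 ± 0.39, 1.15 ± 0.32 and 1.23 ± 0.35, and with -0.62, 0.61 and 0.91 per kb of island. The ribosomal S6 kinase gene Rps6kb2 (1.29 ± 0.34) and Eif2ak4, the kinase GCN2 (0.72 ± 0.27), completed POLR2S5, and Mtor (-1.22 ± 0.36) completed POLR2S2.

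The position of calls along the gene was examined for the 52 genes with a RefSeq promoter, taking the outer annotated ends of each gene as its start and end. For Eif4g3 and others the RefSeq start lies further in. A gene was counted where the call was there in all 4 libraries. H3K9ac lay within 1 kb of the start at 50 of them (96.2%, against 50% of 17491 genes), and covered the start base itself at 6 (11.5%, against 9.62%). POLR2S5 islands covered the start at 47 (90.4%, against 40.9%), POLR2 at 42 (80.8%, against 33.3%) and POLR2S2 at 35 (67.3%, against 19.8%). At the far end of the gene POLR2S2 was the most frequent form, at 37 (71.2%, against 30.0%), POLR2S5 at 33 (63.5%, against 25.2%) and POLR2 at 19 (36.5%, against 11.5%). CTCF lay within 1 kb of the start at 21 genes (40.4%, against 20.7%). At 5 of these, Eif3f, Eef2k, Eif3g, Eif1b and Eif5a, RAD21 lay there too. Across the 52 genes RAD21 lay within 1 kb of the start at 9.62%, against 8.61% of all genes.

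H3K9ac peak scores rank peaks only within their own list, so genes were compared by the percentile of their highest peak, with 2 libraries against 2 and no test, since no exact permutation test of so few libraries can pass the threshold. Of the 64 translation factor genes with a peak in every library, 11 ranked higher at 4% O2 in both rounds and 26 ranked lower, against 26.6% of all genes in either direction. The median difference was -4.13 percentile points (-5.76 and -1.86 by round). Without the 20% O2 library of round 2 it was 0.686. The eIF3 genes had a median of -11.4, with 1 higher and 7 lower of 13, and the elongation factors 3.84, which leaving out 1 library took to between -5.82 and 9.58. Eef1g, a subunit of the eEF1 exchange complex, ranked at 68.3 and 56.8 at 4% O2, against 14.3 and 40.0 at 20% O2. Eif1b, a homologue of Eif1, ranked at 80.6 and 97.3 at 4% O2, against 47.2 and 89.8 at 20% O2, a mean difference that was -0.827 without the 20% O2 library of round 1. Eif4e2 ranked at 87.9 and 78.1 at 4% O2, against 62.3 and 66.9 at 20% O2, the opposite direction to its polymerase ratios.

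Lower H3K9ac ranks at 4% O2 were found for Eif3j1, Eef1a1, Eef1akmt4 and Eif3b. Eif3j1, which encodes the loosely bound eIF3 protein, ranked at 31.4 and 21.4 at 4% O2, against 50.4 and 74.6 at 20% O2. Eef1a1 ranked at 64.5 and 47.6 at 4% O2, against 95.3 and 64.6 at 20% O2, the same direction as its polymerase levels. Eef1akmt4, a methyltransferase of eEF1A, ranked at 57.1 and 66.1 at 4% O2, against 73.6 and 92.9 at 20% O2. Eif3b, a core subunit of eIF3, ranked at 66.1 and 60.4 at 4% O2, against 99.1 and 70.5 at 20% O2. The same direction in both rounds was a condition for naming these genes, so it is no further result.

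CTCF and RAD21 ranks come from lists of unequal length, whose part in the differences was not tested. CTCF lists held 124797 and 81759 peaks at 4% O2, against 126873 and 73200 at 20% O2, and RAD21 lists 39012 and 71225 at 4% O2, against 26908 and 73328 at 20% O2. For CTCF, 16 of 46 genes ranked higher in both rounds and 5 lower, against 27.6% of all genes in either direction, with a median difference of 3.31 points (0.416 and 4.73 by round, and 0.148 to 7.13 with 1 library left out). For RAD21, 11 of 22 ranked higher and 2 lower, against 28.8% and 29.3% of all genes, with a median of 4.16 points (4.56 and 4.47, and 4.17 to 10.7 with 1 library left out). In a pattern singled out after its values were seen, all 6 elongation factor genes with RAD21 in every library ranked higher at 4% O2 in both rounds. Eef1b2, a subunit of the eEF1 exchange complex, ranked at 75.1 and 80.9 at 4% O2, against 42.6 and 63.7 at 20% O2. Eef1a2 ranked at 3.54 and 42.8 at 4% O2, against 0.271 and 11.7 at 20% O2, and Eef1d, also of the exchange complex, at 35.9 and 25.4 at 4% O2, against 5.01 and 22.2 at 20% O2. Eif5a (64.5 and 63.0 at 4% O2, against 18.7 and 62.2 at 20% O2), Eef1g and Eefsec completed the 6, and for Eif5a the second round differed by under 1 point. Eef2k ranked at 51.8 and 82.9 at 4% O2, against 41.8 and 61.3 at 20% O2 for RAD21. The CTCF score of Eef2 stood out in 1 library, with 31.7 and 406 at 4% O2, against 35.2 and 8.69 at 20% O2, which put the gene at percentiles 3.78 and 99.5 at 4% O2, against 6.96 and 3.51 at 20% O2. Eif1b stood out downwards in 1 library, at CTCF percentiles 10.4 and 88.9 at 4% O2, against 75.7 and 76.4 at 20% O2.

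**Figure D5:**
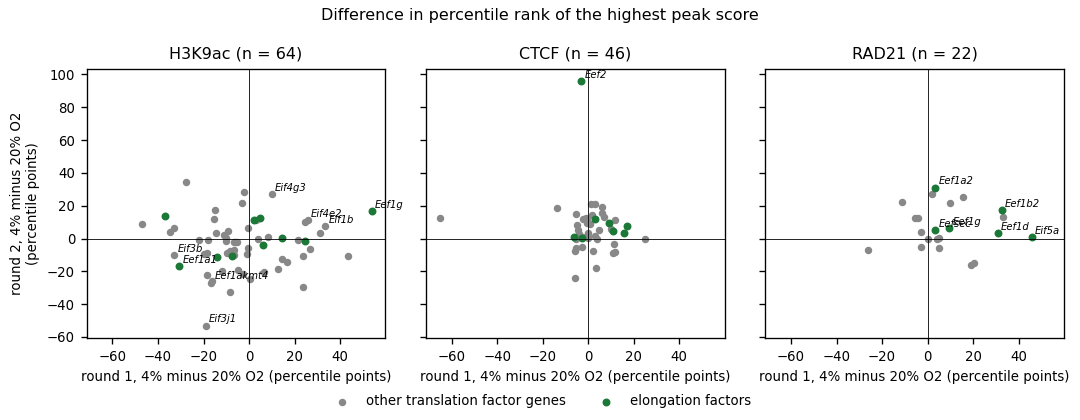
Difference in percentile rank of the highest peak, 4% minus 20% O2, in round 1 (horizontal) and round 2 (vertical) for H3K9ac, CTCF and RAD21, with elongation factor genes in green and the other translation factor genes in grey. The 6 elongation factor genes of the RAD21 panel lie right of and above 0, and Eef2 stands alone at the top of the CTCF panel.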

How the data were processed

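Chromatin immunoprecipitation sequencing was performed on 30 samples, of which 24 antibody libraries were used and 6 inputs were not analysed. The submitters' processing notes name the build mm10 (GRCm38) and the tools BWA, Picard, SICER and MACS2, without versions. Every library was called on its own, with the input of its O2 level as control, per the file names. The authors deposited SICER islands (named in the file headers) with a whole-number read count per island for POLR2, POLR2S5 and POLR2S2. They deposited MACS2 peaks for H3K9ac, CTCF and RAD21, with a last column that was read from its values as a -log10 q. Per the file headers, the 4% and 20% O2 libraries of an antibody with the same replicate number shared a flow cell. This was taken as a sequencing round that pairs them. In round 1 CTCF ran on another flow cell than the other antibodies, and H3K9ac ran in lane 6 at 4% O2 and lane 7 at 20% O2. A shared flow cell does not show that the cultures were paired. Same-round deviations correlated across genes at 0.289, 0.38 and 0.385. Whether the paired libraries of a condition derive from separate cultures is not stated, so p-values measure the spread between libraries, which may be technical. For each replicate 2, a second list deposited with replicate 1 held the same islands, or the peaks around its summits, in all 12 pairs, and was counted once. One CTCF library, replicate 1 at 20% O2, carries in its header a code (Nm21) that no label explains.

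Island reads were shared out by bases over each gene and 1 kb on either side (at least 1 base of overlap), rounded, and fitted over all coding genes with an island in all 4 libraries (9243, 11531 and 9361 genes) with edgeR 4.0.16 in R 4.3.3 (TMM, round as block, Benjamini-Hochberg adjustment, threshold 0.05). Only genes with islands everywhere could be tested. Standard errors were the log2 ratio over the root of F, and round ratios used a prior count of 2. DESeq2 1.42.0 was an alternative. Python 3.11.15 with pandas 2.3.3 did the rest. Of the 68 genes, 33 share their window with another coding gene, among them Eif2b1, Eif3d, Eif3j1, Eif4g1, Eif5a, Eef1b2, Eef1d, Eef1g and Eef1akmt4. The genes, lists and tests were chosen with earlier results of these data known. Genes named were a fixed set of well-known factors, and up to 4 with the largest ratios or rank differences in each direction per polymerase form and for H3K9ac among those with both rounds on one side, plus those with calls at 1 O2 level only or with none. Any other gene named was chosen after its values were seen.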

Additional observations from a re-analysis of the deposited data

How the results depend on the processing

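The polymerase ratios and the counts of called genes were recomputed without TMM, without a low-count filter (an island in at least 1 library), with at least 50 reads, with whole island reads, without the flank, per kb of island, with DESeq2, for genes alone in their window, and leaving out each library. Without the round as a block (no replicate block), the pairing dropped, 0 genes of the translation factors were called and the medians were -0.21, -0.17 and -0.22. The block changed no call. DESeq2 called 1 gene (Eif4g3) in POLR2S5 and 1 in POLR2S2. With a library left out, in the fit without the block, 1 O2 level had a single library, so calls from those fits are not given. The leave-one-out medians ran from -0.40 to 0.068 in POLR2, from -0.37 to 0.073 in POLR2S5 and from -0.43 to 0.078 in POLR2S2. The positive ends came without the 20% O2 library of round 1. Per kb of island, 14 genes in POLR2S5 and 19 in POLR2S2 were above 0 in both rounds, and 12 in POLR2S2 below. The filter on islands in at least 1 library moved the median of all genes to 0.18 in POLR2 and 0.156 in POLR2S2. With islands over at least 20% of the window, 1 gene in each of POLR2S5 and POLR2S2 had calls at 20% O2 only and 0 in POLR2S2 at 4% O2 only. Without the flank, 1 gene (Eif5) had CTCF at 4% O2 only, and the share of all coding genes was not computed for that count.

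The median H3K9ac rank difference ran from -7.17 to 0.686 with 1 library left out, the CTCF one from 0.148 to 7.13, and the RAD21 one from 4.17 to 10.7. RAD21 gave 4.26 with scores of at least 5, 3.97 with peak centres and 5.13 with summed scores. The H3K9ac median of the elongation factors ran from -5.82 to 9.58 with 1 library left out, and was -2.45 without the 4% O2 library of round 2. Of 201 values of the gene groups, 169 kept their direction and size and 6 reversed. Of 783 values of single genes, 678 counted as unchanged and 33 reversed. For polymerase ratios of at least their SE, unchanged meant the same direction and the same side of the adjusted threshold. Size was compared only per kb of island, for ranks and for ratios below their SE. Those below their SE could not count as reversed. The causes were not tested.

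Reversals with whole island reads were Eif3d 0.16 and Eif3l 0.083 in POLR2, Eef1akmt1 -0.0046, Eef2 0.061 and Eif5a 0.16 in POLR2S5, and Eef1akmt3 -0.40, Eif2b4 -0.11 and Eif4a1 1.10 in POLR2S2. Per kb of island they were Eef2k -0.50, Eif2b3 -0.10, Eif2b5 -0.40, Eif3b 0.29, Eif3k -0.47, Eif3l 0.96 and Eif4e2 0.50 in POLR2. In POLR2S5 they were Eif2b3 -0.61, Eif3i -0.21 and Eif4g3 0.40, and in POLR2S2 Eif4e3 -0.50 and Eif4g3 0.14. With 1 library left out, Eef1a1 ran from -1.45 to 0.62 and Eif3b from -1.44 to 0.16 in POLR2. In POLR2S5, Eef1a1 ran from -1.30 to 0.29 and Eef2 from -0.98 to 0.20. In POLR2S2, Eef1a1 ran from -1.80 to 0.56 (0.13 without the 4% O2 library of round 2), Eef1a2 from -1.05 to 0.12, Eif4a1 from -1.34 to 0.039, Eif4a2 from -1.11 to 0.060 and Eef2kmt from -1.55 to 0.071. The upper ends came without the 20% O2 library of round 1, except that of Eef2kmt, which came without that of round 2. For H3K9ac they were Eef1a1 0.207 without the flank, Eif3b 5.16 with summed scores and Eif1b, which ran from -0.827 to 41.8 with 1 library left out.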
